A study of Drosophila melanogaster with 4 samples.

Results

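Drsl1, Drsl4, Listericin and BomT3 are 4 immune peptide genes of Drosophila melanogaster that lie outside the classic antibacterial set of the immune deficiency (IMD) pathway. They were found by their CG numbers (identifiers of annotated fly genes) in the authors' deposited table, and make up 4 of its 244 genes. The table holds genes that the authors selected for a change on these arrays, so a difference between the strains was a condition of being listed, and the values are given as a description. Drsl1 is CG32274 and Drsl4 is CG32282, named there as "Drosomycin-like" and "drosomycin-4". Listericin is CG9080 and BomT3 is CG5778, which the table lists under their numbers alone.

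The arrays compared tracheae of third-instar larvae aged 10 days that had been raised at 22 °C. One RNA came from the first-generation progeny of driver strain NP2610 crossed to a UAS-PGRP-LE strain, in which the GAL4/UAS system drives the receptor PGRP-LE in the airway. The other came from the driver strain NP2610 alone, not crossed to a second strain, so the transgene and the genetic background of the cross cannot be told apart. Each RNA was a pool from 20 pairs of tracheae, and both were hybridised to the same two-colour array in 4 arrays, titled as 2 biological replicates with 1 technical replicate each. The series' text describes the driver as specific for the larval tracheal system and says that dyes were swapped, and the deposited table spells the driver NP2160 where the labels have NP2610.

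Flies defend themselves with small secreted peptides whose genes are switched on by NF-kappa B factors at the end of the IMD and Toll pathways. PGRP-LE binds peptidoglycan of the kind found in Gram-negative bacteria and some bacilli and starts IMD signalling. Drosomycin is an antifungal peptide known as a Toll target in the fat body, while in the airway its gene is known to be driven by the IMD pathway. The drosomycin-like genes encode relatives of it. Listericin is an antibacterial peptide whose induction is known to depend on PGRP-LE and the JAK/STAT pathway. Bomanins are short peptides known as effectors of the Toll pathway, and BomT3 is one of those called tripartite.

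All 4 genes were listed as higher in the authors' deposited table, as were 76.6% of its 244 genes. A positive ratio likely means more RNA in the PGRP-LE cross, since the table names its hybridisation group after that cross and the cross was channel 1 on every array. The numerator is not stated. "Higher" is used in that sense throughout. Of the 4, 3 reached a log2 ratio of 1 or more in the authors' deposited table, a size that 32.4% of all its genes reached on the higher side. In pooled tracheae a change in the number of cells that express a gene and a change in RNA per cell cannot be told apart.

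Drsl1, one of the drosomycin relatives, had the largest ratio of the 4. The authors' deposited table gave it a mean log2 ratio of 1.54 with an authors' SD of 0.77 over 8 valid spots, a 2.91-fold difference. One SD either side of that mean runs from 1.71-fold to 4.96-fold in the authors' deposited table. It ranked 20 of 244, with 19 genes above it, which is 10.2% of the 187 higher genes. How the 8 spots divide among the arrays is not stated.

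Drsl4, the other relative in the table, stood close to Drsl1. Its mean log2 ratio in the authors' deposited table was 1.48 with an authors' SD of 0.85 over 8 valid spots, a 2.79-fold difference. One SD either side covers 1.55-fold to 5.03-fold in the authors' deposited table. The means of the 2 drosomycin-like genes differed by 0.06 on the log2 scale, less than either SD. Only 24 of the 244 genes had a larger SD than Drsl4 in the authors' deposited table.

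Listericin, the peptide tied to PGRP-LE and JAK/STAT signalling, had the same mean as Drsl4. The authors' deposited table gave it a log2 ratio of 1.48 with an authors' SD of 0.75 over 8 valid spots, which is 1.66-fold to 4.69-fold within 1 SD. Drsl4, Listericin and BtbVII, matched by an older identifier, shared rank 23 in the authors' deposited table. The authors' deposited table gave BtbVII, from 6 spots, a narrower spread at that mean, with an SD of 0.31.

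BomT3, the bomanin, had the smallest ratio of the 4. Its mean log2 ratio in the authors' deposited table was 0.74 with an authors' SD of 0.55 over 6 valid spots, a 1.67-fold difference. One SD either side runs from 1.14-fold to 2.45-fold in the authors' deposited table. It ranked 144, and 76.5% of the 187 higher genes had a larger ratio. The lowest positive mean in the authors' deposited table was 0.59, so BomT3 lay nearer to the lower edge of the listed sizes than the other 3 genes did. Atilla, Irbp18 and Cpr78Ca shared its mean of 0.74 in the authors' deposited table.

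**Figure D1:**
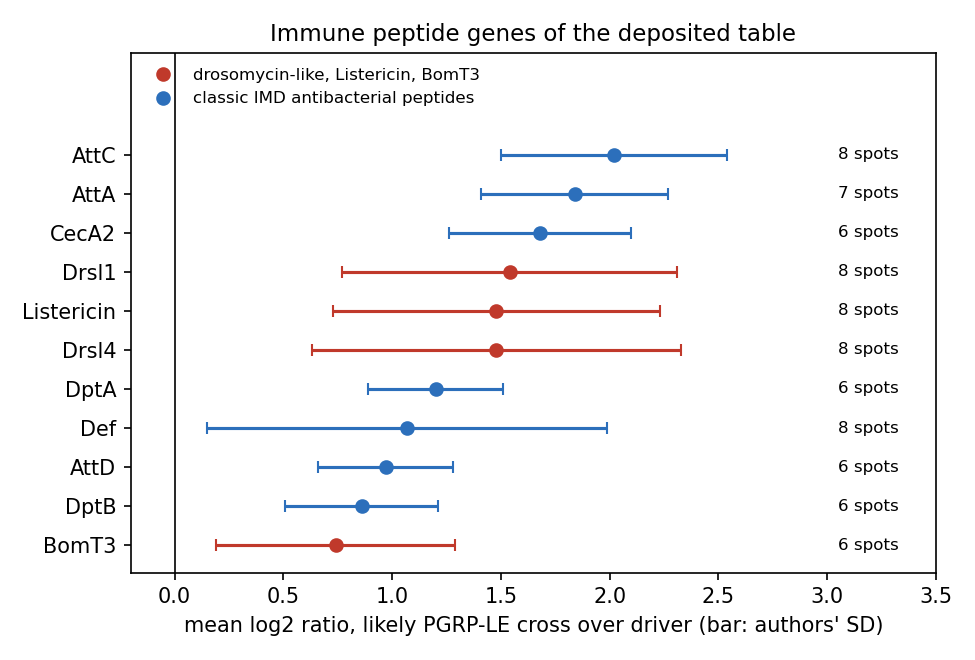
Mean log2 ratio per gene in the authors' deposited table (horizontal axis, likely PGRP-LE cross over driver), with bars of 1 authors' SD over the number of valid spots printed at the right, for Drsl1, Drsl4, Listericin and BomT3 (red) and 7 classic IMD antibacterial peptide genes (blue). Drsl1, Drsl4 and Listericin sit together at 1.48 to 1.54, between CecA2 and DptA, and BomT3 is lowest at 0.74.

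Drsl1, Drsl4 and Listericin had means close together. The 3 differences between them were all within the smaller SD of each pair in the authors' deposited table. These SDs describe the spread of log2 ratios and not the uncertainty of a mean, so they cannot settle an order. BomT3 was lower than Drsl1 by 0.80 and lower than both others by 0.74 on the log2 scale, each more than the smaller SD of the pair in the authors' deposited table. Against Drsl4 and Listericin the difference was less than the larger SD of the pair. The ranges of 1 SD overlapped in all 6 pairs of the 4 genes. No test of these differences was made: the spots behind a mean share arrays and RNA pools, and the table holds no value for a single array.

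Spread relative to size also varied among the 4. The coefficient of variation, the SD over the size of the mean, was 0.50 for Drsl1, 0.51 for Listericin, 0.57 for Drsl4 and 0.74 for BomT3 in the authors' deposited table. The highest of any gene in the authors' deposited table was 0.97, and all 244 means exceeded their SD. That the 4 means did so too is therefore shared with every listed gene. For BomT3, 184 of the 244 genes had a smaller coefficient of variation in the authors' deposited table, against 80 for Drsl1.

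**Figure D2:**
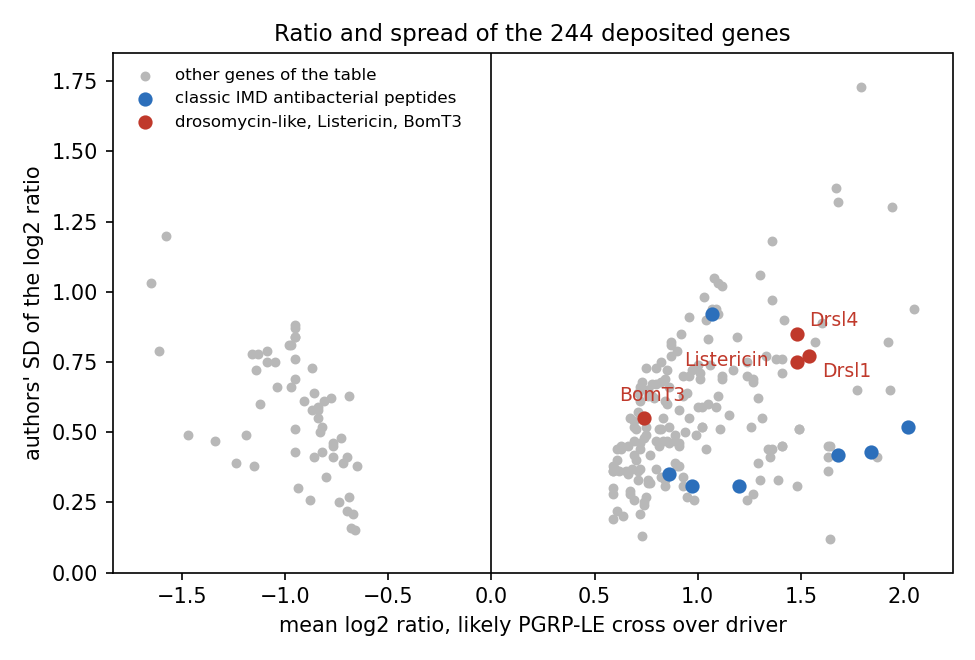
Mean log2 ratio (horizontal axis) against the authors' SD of the log2 ratio (vertical axis) for the 244 genes of the authors' deposited table, 1 point per gene, with Drsl1, Drsl4, Listericin and BomT3 in red and 7 classic IMD antibacterial peptide genes in blue. The red points lie at an SD of 0.55 to 0.85, above all the blue points but Def at 0.92.

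The classic IMD antibacterial peptides are another set of immune peptide genes, set beside these 4 for comparison. Of a list of 13 such genes, 7 were in the authors' deposited table, and how many were on the array is not known here. These 7 were all higher, as were 76.6% of the 244 genes of the authors' deposited table. Their median log2 ratio there was 1.20, against 1.48 for the 4 genes and 0.92 for all higher genes. The attacin genes AttC at 2.02 and AttA at 1.84 and the cecropin gene CecA2 at 1.68 stood above Drsl1 in the authors' deposited table. The diptericin gene DptA at 1.20 and the defensin gene Def at 1.07 stood below Drsl4 and Listericin there. All 7 classic means lay within 1 SD of Drsl1, of Drsl4 and of Listericin in the authors' deposited table. BomT3 had 4 of the 7 within 1 SD, and its range of 1 SD did not overlap those of AttA and AttC. All 7 had larger means than BomT3 in the authors' deposited table.

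The SDs of Drsl1, Drsl4, Listericin and BomT3, from 0.55 to 0.85, were each larger than those of 6 of the 7 classic peptide genes in the authors' deposited table. The exception was Def, with an authors' SD of 0.92. The median SD was 0.76 for the 4 genes, 0.42 for the 7 and 0.52 for all 244 genes of the authors' deposited table. This difference in spread was not tested. Drsl1, Drsl4 and Listericin had 8 valid spots, as did 134 of all 244 genes, while 4 of the 7 classic genes and BomT3 had 6 in the authors' deposited table.

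Relatives of the 4 genes were looked up by symbol, and how many of them were on the array is not known here, so counts of listed genes are given without a share to set them against. Of the 7 genes of the drosomycin family, the authors' deposited table held 2, Drsl1 and Drsl4. Drs, which encodes drosomycin itself, and Drsl2, Drsl3, Drsl5 and Drsl6 were not listed, which gives no measure of their levels. All 7 lie on chromosome arm 3L. In the RefSeq gene order of Release 6, Drsl4 stands between Drsl3 and Drsl5, and 8 genes separate Drsl5 from Drsl1. Drsl6 stands next to Drsl1, and Drs follows Drsl6 after 1 more gene. Members of this family have similar sequences, and cross-hybridisation between their probes was not tested.

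Of 12 bomanin genes, BomT3 alone was in the authors' deposited table. On arm 2R, 10 bomanin genes stand next to each other, and none of these was listed. BomT3 is one of 2 on arm 3R, beside BomBc3, which was not listed either. Within 10 genes on each side of BomT3 no other gene was in the authors' deposited table.

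**Figure D3:**
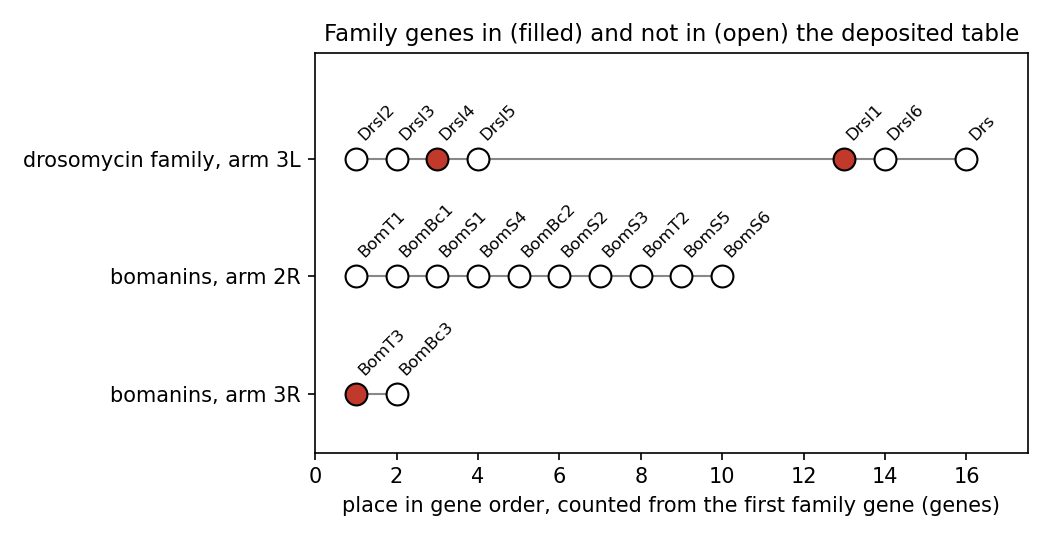
Place in gene order (horizontal axis, in genes from the first family gene on that arm) of the drosomycin family on arm 3L and the bomanins on arms 2R and 3R; filled circles are genes in the authors' deposited table and open circles are genes not in it. Filled circles are Drsl4, Drsl1 and BomT3, while the row of 10 bomanins on 2R is open throughout.

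Of 10 stress and immune peptide genes linked to the JAK/STAT pathway, which include the Turandot genes TotA and TotM and the virus-induced gene vir-1, Listericin alone was in the authors' deposited table. None of 12 genes of the JAK/STAT pathway was listed, among them Socs36E, a feedback inhibitor and known target, and the cytokine gene upd3. That absence gives no measure of their levels or of the pathway's activity. Within 10 genes on each side of Listericin on arm 2R, 2 other genes were listed, both matched through older identifiers. The authors' deposited table gave CG34227 a log2 ratio of 0.91 with an SD of 0.38 from 8 spots. In the authors' deposited table the pseudogene CR30029 had -1.05 with an SD of 0.75 from 6 spots. The listed neighbours of Listericin thus pointed in opposite directions.

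Signalling genes upstream of these peptides were counted in the same way. Of 19 genes of the Toll pathway list, 1 was in the authors' deposited table, PGRP-SD, which encodes a secreted recognition protein known in both the Toll and the IMD pathway and was counted under Toll. Its log2 ratio there was 1.17 with an authors' SD of 0.72 from 7 spots. Of 12 symbols of other secreted peptides linked to Toll, 10 matched the reference and none of those was listed, including the antifungal metchnikowin gene Mtk. Of 20 symbols in the IMD pathway list, which left out PGRP-SD, 19 matched the reference and the authors' deposited table held 1 of them, Rel, which encodes the NF-kappa B factor Relish. Its log2 ratio there was 0.96 with an authors' SD of 0.70 from 13 spots. Drsl1, Drsl4 and Listericin had larger means than both, and both lay within 1 SD of each of them. PGRP-LE, the receptor gene of the transgene and part of the IMD pathway list, was not in the authors' deposited table. Its absence gives no measure of its level, so the table gives no check of the overexpression.

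The gene annotation in the deposited table did not cover every gene of the group. Drsl1 and Drsl4 carried the terms defense response and extracellular, while Listericin and BomT3 carried none. Another 11 genes of the authors' deposited table had the term defense response, 8 of them higher and 3 lower. Another 12 had the term extracellular there, 10 higher and 2 lower. Of all 244 genes of the authors' deposited table, 76.6% were higher, so most genes with either term would be higher by that share alone.

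CG numbers place some genes of the table near each other without nearness in the genome. Within 20 numbers, BomT3 had 1 partner in the authors' deposited table, CG5773, which lies on arm 2R and had a log2 ratio of 0.99 with an authors' SD of 0.49 from 8 spots. Listericin had 1, Mpcp1, which encodes a mitochondrial phosphate carrier and lies on its own arm, with a log2 ratio of 1.35 and an SD of 0.41 from 6 spots in the authors' deposited table. Drsl1 and Drsl4, with numbers 8 apart on the same arm, were each other's only partner.

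Markers of other cell types were also among the listed genes. Of 51 such symbols in 6 lists, 50 matched the reference and the authors' deposited table held 7, of which 3 were higher and 4 were lower. For comparison, 76.6% of all its 244 genes were higher. NimB2 at 0.80 and atilla at 0.74, both from the blood cell list, and Tsf1 of the fat body list at 0.70 were on the side of the 4 peptide genes there. The fat body gene Lsp2 stood at -0.86, and the muscle, neuron and gut genes Mf, fne and Jon99Fi ran from -0.95 to -1.58 in the authors' deposited table. Of 15 symbols of airway genes, 13 matched the reference and none of those was listed, so the table gives no check of the tissue. The part of other cells in the ratios of the 4 peptide genes was not tested.

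A second deposited table gave a log ratio for 32448 numbered spots on each of the 4 arrays, with no gene named, so none of its rows could be assigned to Drsl1, Drsl4, Listericin or BomT3. Its log base, centring and numerator are not stated. The medians of the arrays as deposited ran from -0.41 to 0.98. Within each array, odd rows correlated with the row after them at 0.31 to 0.55, so neighbouring rows cannot be taken as independent. The reason was not tested. Over all rows, correlations between 2 arrays lay between -0.086 and 0.106. In 2181 pairs of neighbouring rows that differed by under 0.5 on every array they lay between -0.092 and 0.307, and in the 444 pairs that differed by under 0.2 between 0.022 and 0.399. Both limits were chosen after seeing the data. With the arrays centred and averaged within each replicate, limma called 0 of 32448 rows (0%) at an adjusted p under 0.05. By the same limma fit 1884 rows had an unadjusted p under 0.05, where a share of about 0.05 of rows would fall if nothing differed. Signs were used as deposited, a choice planned only for arrays that correlate above 0. Over all rows, 3 of 6 array pairs did so. By the label fields, channel 1 was Cy5 on 1 array of each replicate and Cy3 on the other. If the unstated ratio were Cy5 over Cy3, averaging within a replicate would cancel a strain difference. For that reason, and with 2 replicate values per row, the lack of calls does not show that no gene differed. Of the other settings run, averaging neighbouring rows gave 9 calls and the rest gave 0.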

How the data were processed

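Tracheal RNA of 2 strains was compared on 4 two-colour arrays. Each deposited row holds, per the file headers, a gene's log2 ratio averaged by the authors over valid spots, the SD of that log2 ratio, the spot number and a coefficient of variation. The last is a deposited ratio that equals the SD over the size of the mean to within 0.0141. Per the series' text, the genes came from the output of SAM and GeneTraffic. For background correction, normalization and thresholds, the method was not given in the sources used here. Depth does not apply to arrays, and the number of spots and arrays limits the precision. No p-value was computed from pooled values. For the first array the label field gives Cy5 to both channels.

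Identifiers were matched to the RefSeq genes of Release 6: 227 by locus tag and 13 by a unique older identifier, while 4 were unmatched. No coordinates or sequences are given. Folds are 2 to the power of the deposited log2 ratio.

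The deposited value table of log ratios per array names no genes, so the planned test per gene ran on numbered rows. Each array was centred on its median with its signs as deposited, and the 2 arrays of a replicate were averaged. The values were assumed to be log2 from their range, which does not settle the base. limma 3.58.1 in R 4.3.3 was used with Benjamini-Hochberg adjustment and tested on simulated data. Nothing shows that replicates came from separate crosses, so its p-values measure the spread between these samples. The genes most like each member over the arrays, values of other family genes per array and motifs in promoters could not be obtained.

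The named genes are the 4 members, the listed genes of the lists named, and genes tied to a member by rank, neighbourhood or CG number, the last chosen after their values were seen. Members and lists were chosen with earlier results of these data known. Python 3.11.15, numpy 2.4.6 and pandas 2.3.3 were used.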

Additional observations from a re-analysis of the deposited data

How the results depend on the processing

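Of the 4 peptide genes in the authors' deposited table, 3 stayed with at least 8 valid spots and 3 at a log2 size of at least 1, BomT3 being the one left out each time. Of all 244 genes, 140 had at least 8 valid spots and 32.4% reached a log2 ratio of 1 or more on the higher side. With a coefficient of variation under 0.5, 0 of the 4 stayed, as the smallest of theirs was 0.50. That value, of Drsl1, lay on the limit itself, and 80 of all 244 genes had a smaller one. With the sign turned, 0 of the 4 were higher, at -1.54 for Drsl1, -1.48 for Drsl4 and for Listericin, and -0.74 for BomT3. The limma count of called rows in the unnamed value table was 0 as reported and stayed 0 under each alternative run but 1: the mean of each odd row and the row after it gave 9 of 16224, a choice made after seeing the data, and the cause was not tested. Counts at an unadjusted p under 0.05 ran from 718, with signs turned on arrays with Cy3 in channel 1, to 2226, with the biological replicate as a random block. Without 1 array each, the called count was 0. Leaving out a whole replicate left no residual degrees of freedom between replicates, so it gave no test, and no value was missing, so the filter on missing values changed nothing. Alternatives that need a gene name per row, such as the choice among probes, or member and family values per array, were not run. No paired analysis was possible because there is 1 group of arrays, with no second group to pair them with by number, beyond the pairing of both strains within each array that every log ratio already holds.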
